A study of Mus musculus with 10 samples.

Results

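The Igf2-H19 and Kcnq1 imprinted domain is a stretch of distal mouse chromosome 7 that holds a pair of neighbouring clusters of imprinted genes. Its members here are Igf2, H19, Ascl2, Cd81, Tssc4, Kcnq1ot1, Cdkn1c, Slc22a18, Phlda2 and Nap1l4, taken by gene symbol from a table of 52632 genes, and all 10 symbols were found. In 3 female cultures in which the surrounding genes were read from both parental strains, H19 and Cdkn1c were read almost wholly from the 129 allele, Kcnq1ot1 wholly from the Castaneus allele, and Cd81, Tssc4 and Nap1l4 from both. Levels ran from 820 CPM (counts scaled to library size, with TMM factors; median of 10 libraries) for Cd81 down to 0.0231 for Slc22a18. H19 varied 28.2-fold between libraries and Cdkn1c 11.7-fold, and male +/+ replicate 1 was highest for both, at 99 and 104 CPM. No other library was above 41.8 CPM for H19 or 26.7 CPM for Cdkn1c. No member passed the test of the genotype.

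An imprinted gene is transcribed mainly or wholly from the copy inherited from a given parent. In the Igf2-H19 cluster a control region that is methylated on the paternal chromosome keeps the noncoding RNA gene H19 silent there, while on the unmethylated maternal chromosome the insulator protein CTCF binds it and separates the growth factor gene Igf2 from enhancers that both genes use. In the Kcnq1 cluster the long noncoding RNA Kcnq1ot1 is transcribed from the paternal chromosome, where it takes part in silencing neighbours such as Cdkn1c, Phlda2 and Slc22a18, and genes farther out, such as Ascl2, Cd81 and Tssc4, are imprinted chiefly in the placenta. SMCHD1 is a chromatin protein with an ATPase domain, known for its part in silencing the inactive X chromosome and some imprinted clusters.

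The libraries are poly(A) RNA-seq of neural stem cells from the cortices of mouse embryos at embryonic day 14.5, grown on laminin with EGF and basic FGF. Each embryo carried the E147A change in the ATPase domain on a GFP-tagged Smchd1 allele together with an untagged wild-type allele (E147A/+), or was Smchd1 +/+. The females were Smchd1GFP-E147A/+;XistdeltaA/+ (n = 2, litters 1 and 2) or Smchd1+/+;XistdeltaA/+ (n = 2, both litter 3), so that both female groups also carried the Xist deletion. The males were Smchd1GFP-E147A/+;XY (n = 3, from litters 1, 1 and 3) or Smchd1+/+;XY (n = 3, from litters 4, 1 and 3). All had a Castaneus (Cast) father and a 129/C57 F1 mother, per the labels, so a Cast allele is paternal by the labels. The GFP tag was on the mutant allele only, so the change and the tag cannot be told apart, and each culture came from a single embryo.

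Each library held 20648916 to 44519020 gene counts. Neural stem cell markers such as Sox2 and Nes summed to 4760 to 6830 CPM, markers of neurons to 544 to 1030 CPM and of the oligodendrocyte lineage to 507 to 709 CPM, and those of microglia to 0.276 to 2.8 CPM. Smchd1 itself stood at 94.2 to 128 CPM in the 5 E147A/+ libraries and at 122 to 192 CPM in the 5 +/+ libraries, so the genotypes overlapped, and total counts cannot check a point mutation. Within the 4 female libraries counts were also deposited by allele, as 129 and Cast.

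On GRCm38 the members lie in this order on chromosome 7. H19 (ENSMUSG00000000031), a spliced noncoding RNA gene, is at 142575529 to 142578143 on the minus strand, and Igf2 (ENSMUSG00000048583), which encodes insulin-like growth factor II, is at 142650766 to 142666816 on the minus strand. Ascl2 (ENSMUSG00000009248), which encodes a basic helix-loop-helix transcription factor of placental progenitors, is at 142966829 to 142969264 on the minus strand. Cd81 (ENSMUSG00000037706), which encodes a tetraspanin of the cell surface, is at 143052739 to 143067934 on the plus strand, and Tssc4 (ENSMUSG00000045752), which encodes an assembly factor of spliceosomal particles, is at 143069249 to 143071093 on the plus strand. Kcnq1ot1 (ENSMUSG00000101609) is annotated as a single exon of 93092 bases at 143203458 to 143296549 on the minus strand, inside the gene of the potassium channel Kcnq1 on the plus strand. Cdkn1c (ENSMUSG00000037664), which encodes the cyclin-dependent kinase inhibitor p57, is at 143458339 to 143461050 on the minus strand, followed by Slc22a18 (ENSMUSG00000000154), a member of the organic cation transporter family, at 143473736 to 143499334 on the plus strand. Phlda2 (ENSMUSG00000010760), which restrains placental growth, is at 143501545 to 143503150 on the minus strand, and Nap1l4 (ENSMUSG00000059119), which encodes a nucleosome assembly protein, is at 143513579 to 143549106 on the minus strand.

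The promoters of Kcnq1ot1, a noncoding RNA gene read from Cast alone, and Cd81, a coding gene read from both strains, are shown because these genes differ in their allelic pattern. Each is the 250 bases before the start of the gene in RefSeq on GRCm38.p6, 5′ to 3′ on the strand of the gene, at chr7:143296548-143296797 on the minus strand for Kcnq1ot1 and at chr7:143052500-143052749 on the plus strand for Cd81. Capitals mark the letters CCAAT or, on the other strand, ATTGG, the motif bound by the factor NF-Y and known from the Kcnq1ot1 promoter.
Kcnq1ot1: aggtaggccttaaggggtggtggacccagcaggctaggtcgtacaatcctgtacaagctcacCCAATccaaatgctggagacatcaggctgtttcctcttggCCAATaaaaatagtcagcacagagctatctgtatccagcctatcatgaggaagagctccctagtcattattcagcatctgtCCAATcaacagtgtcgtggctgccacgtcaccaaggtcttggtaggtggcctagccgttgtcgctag
Cd81: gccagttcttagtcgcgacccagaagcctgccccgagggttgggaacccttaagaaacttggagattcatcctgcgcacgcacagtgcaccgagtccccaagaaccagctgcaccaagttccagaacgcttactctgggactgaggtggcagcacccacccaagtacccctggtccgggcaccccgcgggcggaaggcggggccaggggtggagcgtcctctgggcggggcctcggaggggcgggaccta
The Kcnq1ot1 window held 3 matches, all on the strand of the gene, and 5 CG pairs, with 51.2% G or C. The Cd81 window held 0 matches and 16 CG pairs, with 65.6% G or C. Of 32851 such windows in the RefSeq table, 33.8% held at least 1 match on either strand, 2.79% held at least 3, and the median was 6 CG pairs. A match is a description of the letters and not a binding site. Among the 7 members with a window in the table, Ascl2 also held 3 matches, in a window with 19 CG pairs.

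H19 also hosts the microRNA miR-675 within its exon, whose arms on GRCm38.p6 are at chr7:142577078-142577099 and chr7:142577112-142577133 on the minus strand. The sequences are shown to identify the small product that lies inside the counted H19 exons, with the seed (bases 2 to 8) in capitals. The microRNA has a row of its own in the deposited table, with 0 counts over the 10 libraries.
mmu-miR-675-3p: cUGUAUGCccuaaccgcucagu
mmu-miR-675-5p: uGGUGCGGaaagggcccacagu

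The first question the female libraries answer is which parental strain each member was read from. A library can answer it only where it carries both strains at distal chromosome 7, so the Cast share of allelic counts was first taken over neighbouring genes that are neither members nor among 22 listed genes of the region and its borders and that had at least 20 allelic counts. The median neighbour was at 48.9% Cast in female E147A/+ replicate 1 (60 genes), 50% in female +/+ replicate 1 (57 genes) and 48.5% in female +/+ replicate 2 (56 genes). In female E147A/+ replicate 2 it was at 0.0788% (59 genes), and 43 of those genes were under 5% Cast. That library therefore held a single strain at most of this region, which goes against its labelled Cast father, and it is left out of the allelic results and of the comparison of shares between genotypes. The mother could pass on a 129 or a C57 chromosome, and how C57 alleles were assigned is not given in the sources used here.

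H19 was read from the 129 allele in each of the 3 libraries with both strains. The counts were 388 from 129 and 4 from Cast in female E147A/+ replicate 1, a Cast share of 1.02% (95% Wilson interval 0.398% to 2.59%). They were 80 and 0 in female +/+ replicate 1, a share of 0% (0% to 4.58%), where a count of 0 allows up to 3 counts or 3.75%, and 523 and 2 in female +/+ replicate 2, a share of 0.381% (0.105% to 1.38%). The Cast share of H19 was below that of every neighbour in all 3 libraries. Summed over them H19 had 991 counts from 129 and 6 from Cast, or 0.602% (0.276% to 1.31%). These intervals cover counting error only, since reads without molecular identifiers are not independent molecules.

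Kcnq1ot1, the paternally transcribed noncoding RNA of the Kcnq1 cluster, showed the opposite strain. It had 0 counts from 129 and 102 from Cast in female E147A/+ replicate 1, 0 and 105 in female +/+ replicate 1, and 0 and 53 in female +/+ replicate 2. Each share was 100% Cast, with lower Wilson bounds of 96.4%, 96.5% and 93.2%. Kcnq1ot1 lay above every neighbour in female E147A/+ replicate 1 and female +/+ replicate 2, and above 56 of 57 with 1 tied in female +/+ replicate 1. In the single-strain library, female E147A/+ replicate 2, its 61 allelic counts were all from 129, so that library carried a transcribed 129 copy of Kcnq1ot1.

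Cdkn1c, which lies beyond Kcnq1ot1, was again read from 129. Its counts were 79 from 129 and 2 from Cast in female E147A/+ replicate 1 (2.47%, Wilson 0.68% to 8.56%), 51 and 2 in female +/+ replicate 1 (3.77%, 1.04% to 12.8%), and 95 and 1 in female +/+ replicate 2 (1.04%, 0.184% to 5.67%). Its share was below that of every neighbour in all 3 libraries, and 2.17% (0.932% to 4.99%) of its summed counts were from Cast. Of the 6 members with a share, H19 and Cdkn1c were thus read almost wholly from 129, and Kcnq1ot1 wholly from Cast, the labelled paternal strain.

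Cd81, Tssc4 and Nap1l4 were read from both strains. Cd81 had 4801 counts from 129 and 4437 from Cast in female E147A/+ replicate 1 (48% Cast), 4787 and 3997 in female +/+ replicate 1 (45.5%), and 5222 and 4653 in female +/+ replicate 2 (47.1%). Nap1l4 had 886 and 823 (48.2%), 701 and 637 (47.6%), and 921 and 952 (50.8%) in the same order. Tssc4 had 517 and 410 (44.2%), 462 and 473 (50.6%), and 502 and 519 (50.8%). All 9 of these shares lay between 44.2% and 50.8%, within the range of the neighbours. In the single-strain library Cd81 had 3 Cast counts of 11181, Tssc4 had 1 of 1034 and Nap1l4 had 8 of 1989 (0.402%). Other genes of the region had more there, with 74 of 1330 (5.56%) for Cars, the listed gene beyond Nap1l4, and 8.07% for the neighbour Rplp2. Some neighbours farther from H19 were higher still, at 16.9% for Bnip3, 18.9% for Ccnd1, 45.3% for Inpp5a and 46.5% for Tpcn2. Others were not, with Mapk1ip1 at 0% and Ppp2r2d at 0.171%, although both lie farther out than Bnip3. The predicted genes Gm4459 and Gm15542 reached 100% and 88.2%, but they were also high in the 3 libraries with both strains. There Gm4459 was at 99.4% to 100% and Gm15542 at 87.7% to 98.9%. In the single-strain library the neighbours from Bnip3 to Inpp5a were all at 13.65% to 45.3%, and those from Fadd to Tpcn2 at 10.7% to 46.5%. Most neighbours between these stretches were under 5%, with Rplp2 and Shank2 (12.5%) among the exceptions. Cast shares in that library therefore differed widely along the region, largely in stretches of adjacent neighbours.

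Igf2 had too few allelic counts for a share under the minimum of 20. It had 7 counts from 129 and 7 from Cast in female E147A/+ replicate 1, 1 and 1 in female +/+ replicate 1, and 8 and 7 in female +/+ replicate 2. Summed over the 3 libraries these were 16 from 129 and 15 from Cast, or 48.4% Cast (95% Wilson interval 32% to 65.2%), so counts from each strain were seen although most of the gene's reads carried no allele. Allelic counts were 3.12% to 11.7% of the total counts of Igf2, against 32.2% to 36.7% for H19. Igf2 is known to be read from both parental chromosomes in the choroid plexus and the meninges. The 5 choroid plexus markers summed to 10.2 and 13.5 CPM in the female E147A/+ libraries, 0.255 to 1.23 CPM in female +/+ and at most 1.54 CPM in the males. Among them Otx2 reached 13.4 CPM in female E147A/+ replicate 2, and Ttr was at 0 in 9 of 10 libraries and at 0.719 CPM in female +/+ replicate 2. Folr1, Kl and Clic6 reached at most 0.0675, 0.0925 and 0.345 CPM in any library. Otx2 alone therefore made up nearly all of the sum in both female E147A/+ libraries. Mesenchymal and meningeal markers summed to 8.07 to 13.9 CPM in the 4 female libraries. The part of such cells in the Igf2 counts was not tested.

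Ascl2 had 4 allelic counts in female E147A/+ replicate 1 and Phlda2 had 1 in female +/+ replicate 2, all from 129, and Slc22a18 had none. These are too few to give the strain.

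**Figure D1:**
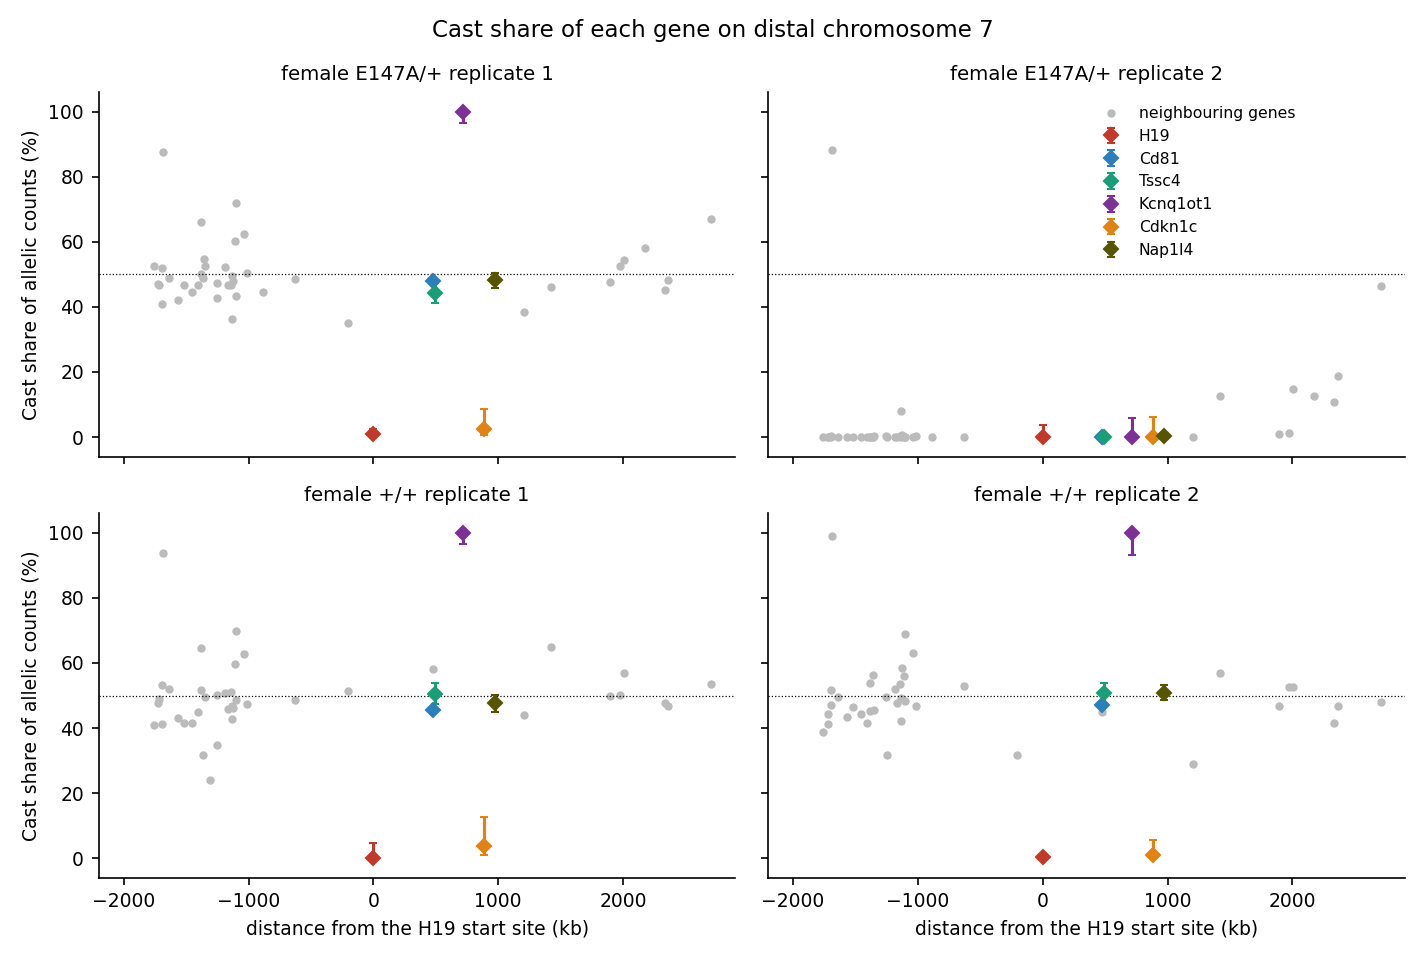
Cast share of allelic counts (%, vertical axis) against distance from the H19 start site (kb, horizontal axis) in each female library, with members as coloured diamonds with 95% Wilson intervals, neighbouring genes with at least 20 allelic counts as grey points, and a dotted line at 50%. Kcnq1ot1 stands at 100% and H19 and Cdkn1c near 0% in 3 libraries, while in female E147A/+ replicate 2 the members and most neighbours lie near 0%.

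The second question is whether the shares differed with the Smchd1 genotype, and 1 E147A/+ library could be set against 2 +/+ libraries, so the shares are described and were not tested. H19 was at 1.02% Cast in E147A/+ and 0.19% ± 0.269 (SD, n = 2) in +/+, and its Wilson intervals overlapped between the genotypes. Cdkn1c was at 2.47% and 2.41% ± 1.93. Kcnq1ot1 was at 100% in all 3 libraries. The strain from which each was read was therefore the same in the E147A/+ library as in the +/+ libraries, and a shift within these intervals was not detectable at this depth.

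Among the members read from both strains, Cd81 was at 48% Cast in E147A/+ and 46.3% ± 1.14 in +/+, and Nap1l4 at 48.2% and 49.2% ± 2.28. Tssc4 differed most, at 44.2% (Wilson 41.1% to 47.4%) in E147A/+ and 50.7% ± 0.173 in +/+, a difference of -6.48 percentage points. Of 56 neighbours with a share in all 3 libraries, 11 differed by at least as much in either direction, and of the 14 that had at least 500 allelic counts in each library none did, with a range from -3.84 to 5.02 points. The difference rests on a single E147A/+ library from another litter than the +/+ libraries, so genotype and litter cannot be told apart.

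Of the other listed genes of the region, 11 had a Cast share in all 3 libraries and 9 of these stayed within 30% to 65%. The exceptions are a pair of decoy receptor genes near the end of the Kcnq1 cluster, picked out after their values were seen. Tnfrsf22 was at 11.7% to 22.2% Cast and Tnfrsf23 at 68.1% to 81.1%. Their lean was towards opposite strains, and it was smaller than that of H19, Cdkn1c and Kcnq1ot1.

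The levels of the members spread over several orders of magnitude. Per length of exon, the median over the 10 libraries was 285 CPM per kb for Cd81, 74.9 for Nap1l4, 26.6 for Tssc4, 11.7 for H19, 9.07 for Cdkn1c, 0.643 for Igf2, 0.149 for Ascl2, 0.0564 for Kcnq1ot1, 0.0223 for Phlda2 and 0.0136 for Slc22a18. The ranges over libraries of Cd81 and Nap1l4 did not meet, nor did those of Nap1l4 and Tssc4, whereas H19 overlapped both Tssc4 and Cdkn1c. The lowest Igf2 library was within the range of Ascl2, and the ranges of Ascl2, Kcnq1ot1, Phlda2 and Slc22a18 overlapped as well. The counts of Kcnq1ot1 are divided by 93092 bases on this scale, and before that its median was 5.25 CPM, beside 3.68 CPM for Igf2. How evenly its reads covered that length was not tested. In bulk RNA, fewer cells that express a gene and less RNA per cell cannot be told apart.

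Cd81, Nap1l4 and Tssc4, the members read from both strains, were also the steadiest. Cd81 ranged from 622 CPM in male E147A/+ replicate 2 to 1030 CPM in male +/+ replicate 1, a 1.66-fold range. Nap1l4 ranged 1.43-fold, from 199 to 284 CPM, and Tssc4 1.94-fold, from 36.5 to 71 CPM. The SD of log2 CPM over libraries was 0.17 for Nap1l4, at percentile 10.8 of all genes tested, and 0.31 for Tssc4, at percentile 48.3.

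H19 was at 25.9 and 6.57 CPM in the female E147A/+ libraries, 6.94 and 41.8 in female +/+, 19.1, 32.8 and 31.7 in male E147A/+, with 99, 38.9 and 3.51 in male +/+. Male +/+ therefore held both the highest and the lowest of the 10 libraries, and every group overlapped every other. The SD of log2 CPM was 1.42, at percentile 99.4 of all genes tested.

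Cdkn1c was at 19.2 and 8.9 CPM in female E147A/+, 14.6 and 17.8 in female +/+, 20.6, 26.6 and 14.8 in male E147A/+, with 104, 26.7 and 8.88 in male +/+. The same library, male +/+ replicate 1, was again highest, at 11.7 times the lowest. The SD of log2 CPM was 0.99, at percentile 97.2.

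Igf2 was at 4 and 2.17 CPM in female E147A/+, 2.04 and 3.75 in female +/+, 3.13, 5.53 and 5.75 in male E147A/+, with 6.17, 3.61 and 1.59 in male +/+. Male +/+ replicates 1 and 3 were the highest and the lowest for Igf2, as for H19 and Cdkn1c. Igf2 shares its exons in the annotation with a readthrough gene that is not analysed here, and reads that both share cannot be told apart. Male +/+ replicate 1 also had the highest oligodendrocyte-lineage markers Pdgfra (85 CPM) and Sox10 (32.6 CPM), and male +/+ replicate 3 the highest sum of mesenchymal and meningeal markers (32.4 CPM). That sum was 27 CPM in male E147A/+ replicate 3, where Igf2 was at 5.75 and H19 at 31.7 CPM. Male +/+ replicate 3 was also highest for the summed markers of neurons (1030 CPM), microglia (2.8 CPM) and endothelium (4.12 CPM). Their part in these levels was not tested.

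Kcnq1ot1 was at 5.29 and 3.61 CPM in female E147A/+, 7.77 and 3.16 in female +/+, 5.73, 7 and 1.56 in male E147A/+, with 4.66, 5.21 and 6.45 in male +/+. Its lowest library, male E147A/+ replicate 3, had 47 counts, and the groups overlapped. The row of Kcnq1, the channel gene on the other strand, had 2 counts over the 10 libraries, and since the use of strand in counting is not given, reads of the 2 genes cannot be told apart.

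Ascl2, Phlda2 and Slc22a18 were near the limit of detection. Ascl2 had 0 to 16 counts per library, Phlda2 0 to 3 and Slc22a18 0 to 6. Phlda2 was at 0 in 4 libraries and Slc22a18 in 4, and neither passed the filter on low counts, so that 8 of the 10 members were tested. Ascl2 passed that filter through the libraries in which it was high: without male E147A/+ replicate 1 or 2, or with at least 10 counts asked of every sample, it was not tested.

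**Figure D2:**
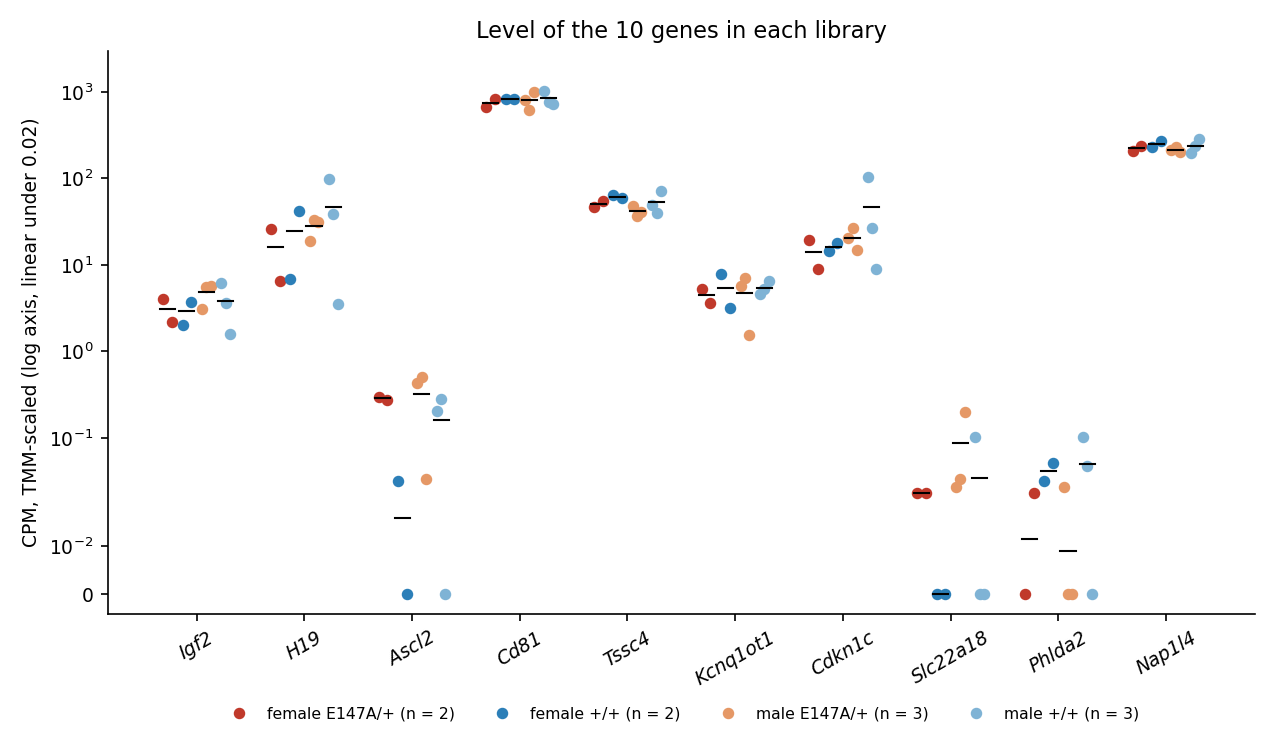
Level of each member in each library (CPM on a log axis that is linear under 0.02), with points coloured by sex and genotype and a black line at the mean of each group. Among the 7 members above 1 CPM in every library, the points of H19 and Cdkn1c spread most, and those of Cd81 and Nap1l4 least.

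H19 and Igf2 went up and down together over the libraries. Of 28 pairs of the 8 tested members, Igf2 and H19 had the highest correlation of log2 CPM, with Pearson r = 0.92 (permutation p = 0.00027, adjusted 0.00756, n = 10) and Spearman rho = 0.794 (permutation p = 0.00892, adjusted 0.111). Without male +/+ replicate 3 and female +/+ replicate 1, the libraries farthest from the median, r was 0.82. It was 0.959 for deviations from the group means and 0.906 over the 6 males. Both genes are known to use the same enhancers, and the part of these in the correlation was not tested.

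H19 and Cdkn1c, which sit in separate clusters, gave r = 0.835 (permutation p = 0.00117, adjusted 0.0164) and rho = 0.806 (permutation p = 0.00741, adjusted 0.111). Without male +/+ replicate 3 and female E147A/+ replicate 2 r was 0.745, and without male +/+ replicate 1, the library with the high Pdgfra, it was 0.83. Igf2 and Cdkn1c gave r = 0.717 (permutation p = 0.0124, adjusted 0.087). Igf2 with H19 and H19 with Cdkn1c were the 2 pairs that passed by Pearson, none of the 28 passed by Spearman, and all genes share the library scaling. Of 12596 other genes, 0.746% followed H19 at least as closely as Igf2 did, and 0.619% followed Igf2 at least as closely as H19 did. For H19 and Cdkn1c these shares were 3.73% from the side of H19 and 1.27% from that of Cdkn1c.

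**Figure D3:**
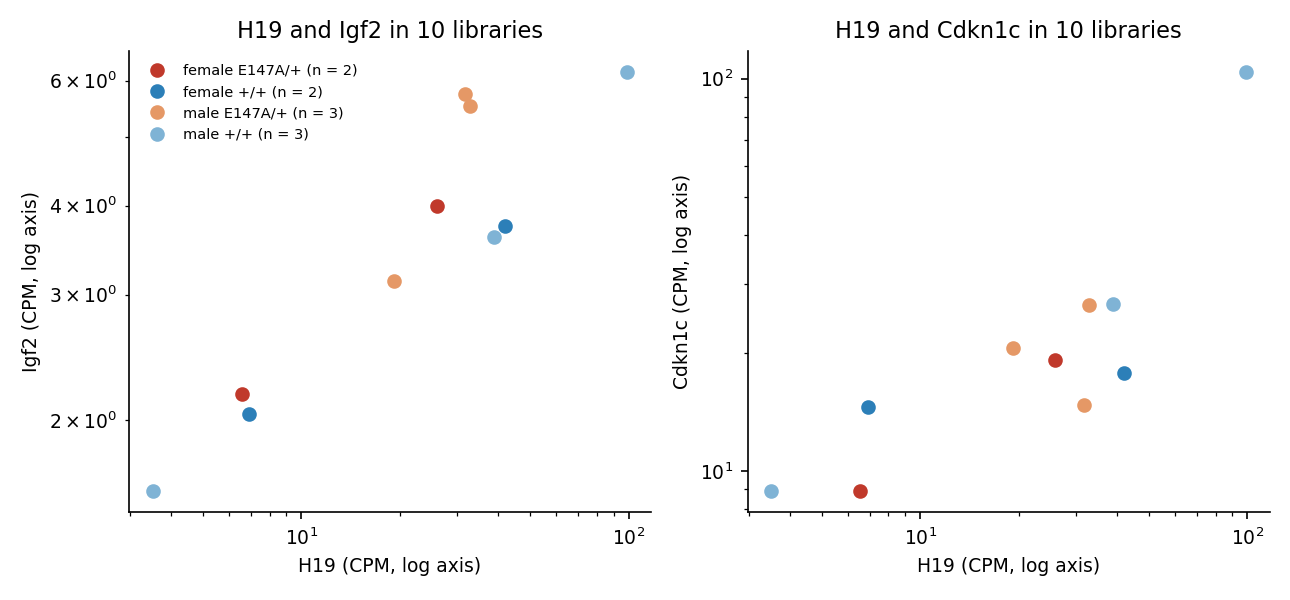
Igf2 (left) and Cdkn1c (right) against H19, each in CPM on log axes, with a point per library coloured by sex and genotype. Igf2 rises with H19 over the whole range, and male +/+ replicate 1 has the highest level of all 3 genes.

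Over 12596 candidate genes, those whose log2 CPM followed H19 most closely over the 10 libraries were Kcnj11 (r = 0.971), Dok5 (0.97) and D430019H16Rik (0.97). Igf2 was followed by Fggy (0.976), Stom (0.968) and Otub2 (0.965), Cdkn1c by Syt11 (0.962), Rab5b (0.948) and Prdx5 (0.946), and Kcnq1ot1 by Ubn2 (0.927), Snrnp200 (0.923) and Arid2 (0.911). Members were left out of the candidates, and a ranking over so many candidates is a description only.

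The third question is whether the E147A change altered the level of the members. None of the 8 tested was called in either sex, over both sexes or in the interaction of sex and genotype, by edgeR's quasi-likelihood test with Benjamini-Hochberg adjustment over all genes. The background was low too. Over both sexes 0.0818% of 17110 genes were called, with 0.0117% in females, 0.0234% in males and 0% in the interaction. At an unadjusted p under 0.05 there were 1010, 746, 589 and 314 genes. Ascl2 was the one member among them over both sexes and in females, and since the filter admitted it through its high libraries this is a description only. None of 74 alternative fits called a member either, DESeq2 and limma-voom among them, and their lowest adjusted p was 0.381, for Ascl2 in females.

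For the genes read wholly or almost wholly from 1 strain, the change over both sexes in log2 was -0.67 (SE 0.77, edgeR adjusted p = 0.86) for H19, -0.69 (SE 0.56, adjusted p = 0.824) for Cdkn1c and -0.24 (SE 0.42, adjusted p = 0.91) for Kcnq1ot1. These errors were as large as the changes or nearly so. Without female +/+ replicate 2 H19 was at 0.23, and without male +/+ replicate 1 Cdkn1c was at 0.01. In males the change was -0.76 (SE 0.97) for H19 and -1.18 (SE 0.71) for Cdkn1c, and without male +/+ replicate 1 these were 0.40 and 0.22. Female H19 was at -0.59 (SE 1.19) with all libraries, 1.23 without female +/+ replicate 2 and 0.09 without female E147A/+ replicate 2, so its direction rested on those libraries. Kcnq1ot1 was at 0.16 over both sexes without female +/+ replicate 1, and its female change went from -0.30 (SE 0.65) to 0.49 without that library.

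For the genes read from both strains the errors were narrower. Over both sexes Cd81 changed by -0.11 in log2 (SE 0.17, edgeR adjusted p = 0.9), Tssc4 by -0.31 (SE 0.17, adjusted p = 0.821) and Nap1l4 by -0.17 (SE 0.13, adjusted p = 0.824), none past the threshold. Tssc4 averaged 51.2 ± 5.95 CPM in female E147A/+ (SD, n = 2) against 61.7 ± 3.48 in female +/+ (n = 2), and 41.8 ± 5.82 in male E147A/+ (n = 3) against 53.4 ± 16.1 in male +/+ (n = 3). Igf2 was at 0.21 (SE 0.41, adjusted p = 0.92), at -0.03 without female E147A/+ replicate 1 and at 0.49 without male +/+ replicate 1, with 3.08 ± 1.29 and 2.89 ± 1.21 CPM in female E147A/+ and +/+ and 4.8 ± 1.45 and 3.79 ± 2.3 CPM in the males.

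The median change over the 8 tested members was -0.21 over both sexes, -0.19 in females and -0.18 in males, beside -0.01, -0.01 and -0.02 over all genes tested. Among the 8 tested members in females, Ascl2 was the one whose E147A/+ libraries both lay above the +/+ libraries, as did 21.8% of all genes tested, and Cd81 and Tssc4 lay below, as did 19.3% of all genes tested. In males 3.2% of genes lay wholly above and 3.96% wholly below, and no member did either. Without female E147A/+ replicate 2, the single-strain library, the female changes were 0.09 for H19 (SE 1.41), 0.26 for Cdkn1c (SE 1.04) and 4.06 for Ascl2 (SE 2.02), and no member was called.

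**Figure D4:**
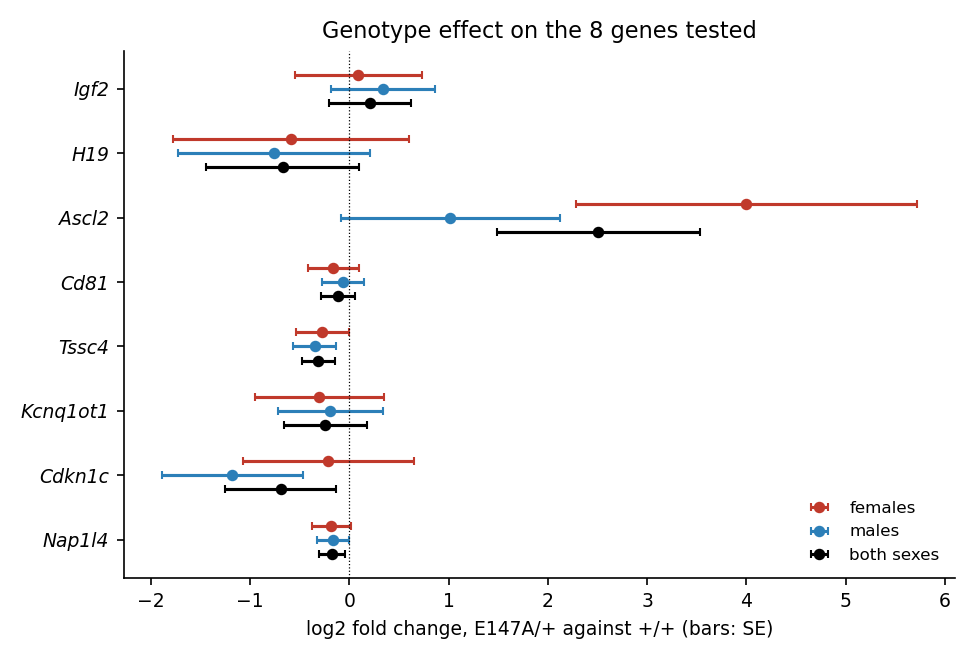
Log2 fold change of E147A/+ against +/+ for the 8 members tested (horizontal axis), in females, males and over both sexes, with bars of 1 SE. Most bars cross the dotted line at 0. Those of Ascl2 in females and over both sexes lie above it, and those of Tssc4 in all 3, of Cdkn1c in males and over both sexes and of Nap1l4 over both sexes lie below it, and none passed the test after adjustment.

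Within a litter, males of both genotypes could be set side by side in litter 1 (2 E147A/+ and 1 +/+) and litter 3 (1 and 1). H19 was at -0.58 in log2 in litter 1 and 3.17 in litter 3, Cdkn1c at -0.18 and 0.73, and Igf2 at 0.26 and 1.86. Kcnq1ot1 was at 0.29 and -2.04, and Tssc4 at 0.10 and -0.80. Cd81 was at -0.09 and 0.43, and Nap1l4 at -0.11 and -0.48. The litters gave opposite signs for H19, Cdkn1c, Kcnq1ot1, Tssc4 and Cd81, and the same sign with sizes several-fold apart for Igf2 and Nap1l4. With litter as a covariate the change of H19 was 0.74 (SE 1.03) in males, -0.95 (SE 1.64) in females and -0.11 (SE 0.85) over both sexes, and that of Cdkn1c was 0.20 (SE 0.27), -0.81 (SE 0.45) and -0.31 (SE 0.26). Over both sexes the same fit gave -0.87 (SE 0.73) for Kcnq1ot1 and 0.57 (SE 0.50) for Igf2, and no member was called in it.

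Ascl2 counts split by litter. Its counts were 13 and 12 in female E147A/+, 1 and 0 in female +/+, 16, 15 and 1 in male E147A/+, with 6, 6 and 0 in male +/+. The 4 libraries of litter 3 had 0 or 1 counts whatever their genotype, and the other 6 had 6 to 16, so the litters did not overlap. Of all genes tested 3.73% lay lower in every library of litter 3 than in the other 6 and 2.69% lay higher, and Ascl2 was the one member that did either. Summed counts scaled by library size were 21.7 times higher outside litter 3 (68 counts against 2, exact interval 5.77 to 183 for counting error), a split looked at after the values were seen.

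Between the female groups the same ratio was 20.3 (25 counts against 1, exact interval 3.33 to 834 for counting error), and the fitted change in log2 was 4.00 (SE 1.72, edgeR unadjusted p = 0.0427, adjusted p = 0.964). The filter admitted Ascl2 through its high libraries, so these values and the split by litter are a description only. The exact intervals leave out the spread between cultures. Both female +/+ libraries came from litter 3 and neither E147A/+ library did, so genotype and litter cannot be told apart there. With a library left out the female change was 3.04 to 6.30. Over both sexes the change was 2.51 (SE 1.02, edgeR adjusted p = 0.814). With litter as a covariate the female change was -0.16 (SE 3.01) and that over both sexes 0.39 (SE 1.16). In males it was 1.02 (SE 1.10) without litter and 0.95 (SE 1.00) with it, and within litter 1 it was 0.72.

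**Figure D5:**
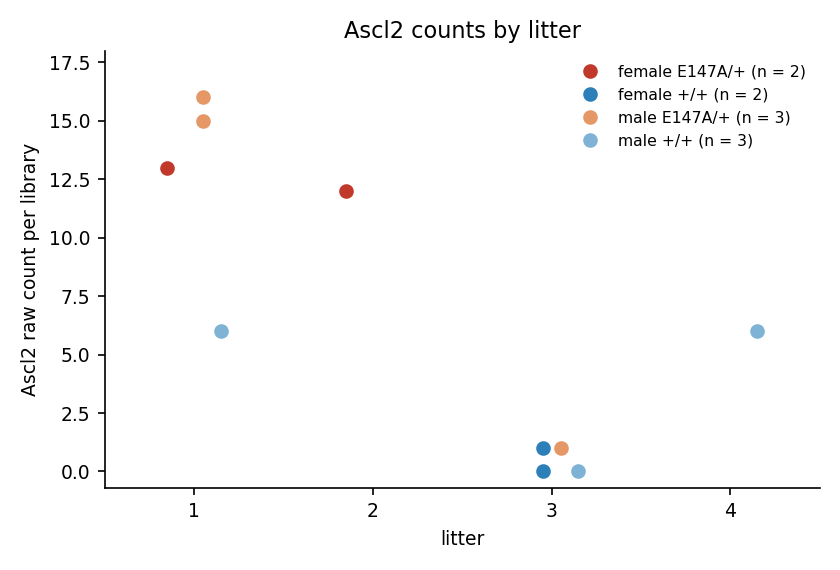
Raw Ascl2 count of each library (vertical axis) by litter (horizontal axis), with points coloured by sex and genotype. All 4 libraries of litter 3 have 0 or 1 counts and the other 6 have at least 6.

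Genes that act on or beside the domain were looked at as lists, and none of their members was called in any of the comparisons, against the 0.0818% of all genes over both sexes. Of 22 other genes of the region and its borders 13 were tested, with a median change of 0.04 over both sexes and a range from -0.23 to 0.33. The lowest p belonged to Cars, a cysteinyl-tRNA synthetase gene, at 0.33 (SE 0.19), and Tnfrsf22 at 0.31 (SE 0.20). Of 21 genes of IGF ligands, receptors, substrates and binding proteins 17 were tested, with a median of 0.09. Igfbp5, which encodes an IGF binding protein, was at 1.04 (SE 0.53, edgeR adjusted p = 0.821) over both sexes, at 2.17 (SE 0.85, adjusted p = 0.964) in females and at -0.10 (SE 0.67) in males, with an interaction of 2.27 (SE 1.07, adjusted p = 0.999). Igf2bp1, which encodes a protein that binds Igf2 mRNA, was at 0.61 (SE 0.44).

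Of 17 factors that maintain imprints 16 were tested, with a median of 0.01. Zfp57, which encodes a zinc finger protein that protects methylated imprints, was at 0.85 (SE 0.33, edgeR adjusted p = 0.803), and Smchd1 at -0.42 (SE 0.15, adjusted p = 0.786). All 6 cyclin-dependent kinase inhibitors related in function to Cdkn1c were tested, with a median of -0.09, and Cdkn2c at -0.42 (SE 0.18) and Cdkn2d at -0.16 (SE 0.12) had the lowest p. The median over all genes tested was -0.01 over both sexes. By sex, the other genes of the region had a median of 0.21 in males, with 11 of 13 above 0 and all genes at -0.02, and -0.02 in females. Their interaction median was -0.24, beside 0.03 over all genes.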

How the data were processed

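Poly(A) RNA-seq was measured in 10 libraries, whose titles give the sex and genotype groups. Raw counts were deposited by the authors for each gene and library and, for the 4 females, further columns of 129 and of Cast allele counts. Trim Galore 0.4.4, HISAT2 2.0.5, featureCounts and edgeR 3.24.0 in R 3.5.1, with GRCm38, are named per the submitters' processing notes, while strandedness in counting and how alleles were assigned are not given in the sources used here.

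The members and lists were chosen with earlier results of these data known. Genes were kept by filterByExpr (17110 of 52632), scaled by TMM, and compared by the quasi-likelihood F test of edgeR 4.0.16 (R 4.3.3) over all 10 libraries, with 1 mean per group, 6 residual degrees of freedom and Benjamini-Hochberg adjustment at 0.05. Contrasts were E147A/+ against +/+ in each sex, over both, and their interaction. The fit was tested on simulated counts, and the outcome is not reported here. CPM per kb used exon lengths of GENCODE M21, whose starts and ends matched 99.4% of the table's genes. Cast shares needed 20 allelic counts, and neighbours ran from 5 Mb before H19 to the end of the chromosome, with both strains called at a median of 35% to 65%. Correlations used 100000 permutations.

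All members are named. From each list the genes called, or else the 2 with the lowest p over both sexes, are named, and for 4 members the 3 most alike genes whose log2 CPM averaged 1 or more. Alternatives were DESeq2 1.42.0, limma 3.58.1 (voom), other scaling and filters, litter, a replicate block, other allelic minimums and each library left out. Leave-one-out correlations, the ratio of Ascl2 counts and the shares of other genes beside both were added after the data were seen. Libraries that share a number come from different embryos. The p-values measure the spread between single cultures.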

Additional observations from a re-analysis of the deposited data

How the results depend on the processing

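No member was called in any alternative fit. Over all genes, the 14 calls over both sexes became 113 with DESeq2, 29 with limma-voom, 33 with no filter, 9 with at least 10 counts in every sample, 3 with litter as a covariate, and 2 to 12 with a library left out. The 2 calls in females became 44 with DESeq2, 8 with no filter, 1 with only the groups compared, 0 with litter (286 at an unadjusted p under 0.05) and 0 to 2 with a library left out. The 4 calls in males became 46 with DESeq2, 9 with limma-voom, 14 with no filter, 2 with litter, 1 with only the groups compared and 1 to 4 with a library left out. The interaction, with 0, gave 2 with DESeq2, 1 with litter and 0 to 1 with a library left out. The cause of these shifts was not tested. With a replicate block there were 5 calls over both sexes, 0 in females (836 unadjusted) and 2 in males, and with the female numbers crossed 6 over both sexes and 0 in females (1020 unadjusted). The numbers share no litter in females (correlation of deviations -0.304), and the male pairs were at -0.238, 0.416 and 0.0341, so they were not taken to pair the libraries.

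The 3 libraries with both strains stayed 3 under other windows, bounds and minimums, and the members with a share were 6, or 7 with a minimum of 10 counts. Allelic depth limits Igf2, Ascl2, Phlda2 and Slc22a18, which had no share per library at the minimum of 20, and 2 or 3 libraries a group limit the test of H19 and Cdkn1c.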
